A study of Mus musculus with 4 samples.

Results

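Notch1, Notch2, Notch3 and Notch4 are the 4 Notch receptors of the mouse, and all 4 were present among the 18767 genes counted in single cells sorted from mouse aorta. They were taken by name, as a gene family. Their counts were read in 824 of 991 cells, those with more than 1200 genes detected. Notch receptors are single-pass membrane proteins that bind ligands of the Jagged and Delta-like families on a neighbouring cell. Ligand binding lets ADAM10 and then gamma-secretase cut the receptor, and the freed intracellular domain joins the DNA-binding protein RBPJ in the nucleus and turns on targets such as the Hes and Hey genes. In arteries NOTCH1 and NOTCH4 are known as endothelial receptors and NOTCH3 as the receptor of smooth muscle cells and pericytes, while NOTCH2 is found in several cell types of the vessel wall.

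The libraries came from mice on a C57BL/6J background in which both copies of Jag1, a Notch ligand, are floxed. In Jag1 ECKO mice a tamoxifen-activated Cre recombinase driven by the endothelial CDH5 promoter deletes Jag1, whereas Jag1 ECWT mice, the controls, lack Cre, and tamoxifen was given to activate Cre. Aortas were digested from the root to the iliac artery, and cells positive for CD31 and negative for CD45 and the dead-cell stain TO-PRO-3 were sorted one per well for SORT-seq, a plate method that counts tagged 3′ ends of transcripts. The libraries s001 and s002 bear the label Jag1 ECKO, while s003 and s004 bear the label Jag1 ECWT. The labels do not say whether the libraries of one label came from different animals, so the spread between them may be partly technical.

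By library, s001 to s004, the kept cells numbered 202, 236, 140 and 246, with totals of 859280 to 1779042 counts per library. Some features of the libraries bear on what follows. Jag1 in endothelial cells (EC) went against the labels, with 165 and 73.0 CPM, which scales counts to the library's total, in s001 and s002 and 31.2 and 26.3 CPM in s003 and s004. The 3′ tags do not tell whether a deleted exon is missing, and the position of the floxed exons is not given in the sources used here, so each library is called by its label only. The library s001 stood apart, since a cluster of 29 cells led by the immediate early genes Nr4a1, Junb and Egr1 came from this library alone. The 373 well barcodes are reused from plate to plate, and 86 of them occurred in all 4 libraries, so a barcode shared between libraries does not mark a shared cell.

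Cells were put into classes by genes other than the receptors. A cell with 5 or more counts of Myh11, the heavy chain of smooth muscle myosin, was called Myh11-high, and one with 5 or more counts of Lum, the fibroblast matrix proteoglycan lumican, was called Lum-high. Other cells with at least 3 of 10 endothelial markers were called EC. This gave 794 EC (193, 225, 136 and 240 in s001 to s004), 14 Myh11-high cells (7 in s001, 2 in s002 and 5 in s004), 15 Lum-high cells (1, 9, 4 and 1) and 1 unassigned cell. No cell reached 5 counts of both genes. The smooth muscle marker list summed to 41210 CPM in Myh11-high cells and 544 CPM in EC. The fibroblast list summed to 22810 CPM in Lum-high cells and 1324 CPM in EC. These lists include Myh11 (6089 CPM in Myh11-high cells) and Lum (2798 CPM in Lum-high cells), which cut the classes. In Myh11-high cells the fibroblast list also stood at 3989 CPM, and the pericyte list at 1929 CPM against 78.9 CPM in EC. Both minor classes had passed a CD31 gate and still held endothelial RNA. Pecam1, which encodes CD31, stood at 811 CPM in Myh11-high cells and 3357 CPM in Lum-high cells against 4836 CPM in EC, while Kdr was at 0 in both and Emcn at 0 in Myh11-high cells. Rgs5, a pericyte gene, was at 1086 CPM in Myh11-high cells, so this class is described by its rule and given no narrower name. No doublet caller was run, and the part of doublets or free RNA in the minor classes was not tested.

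On GRCm38, Notch1 lies on the minus strand at chr2:26457903-26516663 and has 34 exons in its main GENCODE transcript. Notch2 lies on the plus strand at chr3:98013527-98150361, also with 34 exons. Notch3 and Notch4 are both on chromosome 17, Notch3 on the minus strand at chr17:32120820-32166852 with 33 exons and Notch4 on the plus strand at chr17:34564268-34588503 with 30 exons. The last exon, where 3′ tags fall, is shared with no other gene in Notch2 and Notch4. In Notch3 it overlaps the antisense gene Gm17276, and in Notch1 it overlaps non-coding genes on the opposite strand. Whether counting used the strand is not given in the sources used here. Each molecule is counted once by its 3′ end, so CPM can be compared between receptors without scaling by length, although the capture of each 3′ end may differ.

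To set Notch3, which was higher in Myh11-high cells, beside Notch4, the other receptor gene on chromosome 17, the 250 bases before each start site are shown, from the RefSeq promoter table of GRCm38.p6, at chr17:32166891-32167140 on the minus strand for Notch3 and chr17:34564045-34564294 on the plus strand for Notch4. All 4 receptors had an entry in that table. The RefSeq start sites are not those of the GENCODE spans given above. The Notch1 window, at chr2:26503823-26504072, lies wholly inside the GENCODE span of its gene, 12.8 kb past its start, and the last 27 bases of the Notch4 window and 11 of the Notch2 window run into theirs. Capitals mark matches on either strand to the motif letters given after the sequences.
Notch3: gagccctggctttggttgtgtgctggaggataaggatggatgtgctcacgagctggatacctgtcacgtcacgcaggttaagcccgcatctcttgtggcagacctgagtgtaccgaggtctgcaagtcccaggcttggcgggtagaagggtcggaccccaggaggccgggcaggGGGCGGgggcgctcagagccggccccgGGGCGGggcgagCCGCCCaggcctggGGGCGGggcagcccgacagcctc
Notch4: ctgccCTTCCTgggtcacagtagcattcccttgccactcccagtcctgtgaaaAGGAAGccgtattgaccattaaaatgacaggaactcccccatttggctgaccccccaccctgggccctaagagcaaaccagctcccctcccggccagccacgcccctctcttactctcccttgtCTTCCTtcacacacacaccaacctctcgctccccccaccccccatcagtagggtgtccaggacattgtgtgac
The motifs were picked as textbook elements of vascular and Notch-responsive genes after the sequences were seen. The letters AGGAAG, a core bound by ETS factors, occurred 3 times in the Notch4 window and in none of the other 3 receptor windows, and in 29.5% of 32851 promoter windows of the same length. GGGCGG, the GC box bound by SP1, occurred 4 times in the Notch3 window, 5 times each in those of Notch1 and Notch2 and not in that of Notch4, and in 32.7% of all windows. The Notch4 window held 4 CpG and the Notch3 window 17, beside a median of 6 over all windows. No receptor window held TGGGAA, the core bound by RBPJ (21.6% of all windows), TGACTCA, the AP-1 element (4.46%), or a CArG box (1.47%), the element bound by serum response factor in smooth muscle genes. Matches of different motifs did not overlap. A match describes the letters and not a bound site.

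A first question was how much of each receptor EC carried. Notch1 was the leading receptor in EC, followed by Notch4 and Notch2, and Notch3 was close to 0. From s001 to s004, Notch1 reached 300, 208, 254 and 245 CPM, a mean of 252 ± 38.1 CPM (SD, n = 4 libraries), and ranked 521 of the 18354 genes detected in EC. Notch4 stood at 111, 120, 95.9 and 111 CPM in the same order, a mean of 109 ± 9.91 CPM, and varied least between libraries. Notch2 stood at 61.4, 36.5, 39.6 and 43.7 CPM, a mean of 45.3 ± 11.1 CPM. In Notch2 the library s001 was above the other 3, as it was in Notch1. Notch3 stood at 1.06, 0.608, 2.40 and 2.08 CPM, which rested on 1, 1, 2 and 3 counts. The order Notch1, Notch4, Notch2, Notch3 was the same in all 4 libraries, and the ranges of neighbours in that order did not overlap. Within a library Notch1 exceeded Notch4 by 1.74 to 2.71 times and Notch2 by 4.90 to 6.42 times.

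**Figure D1:**
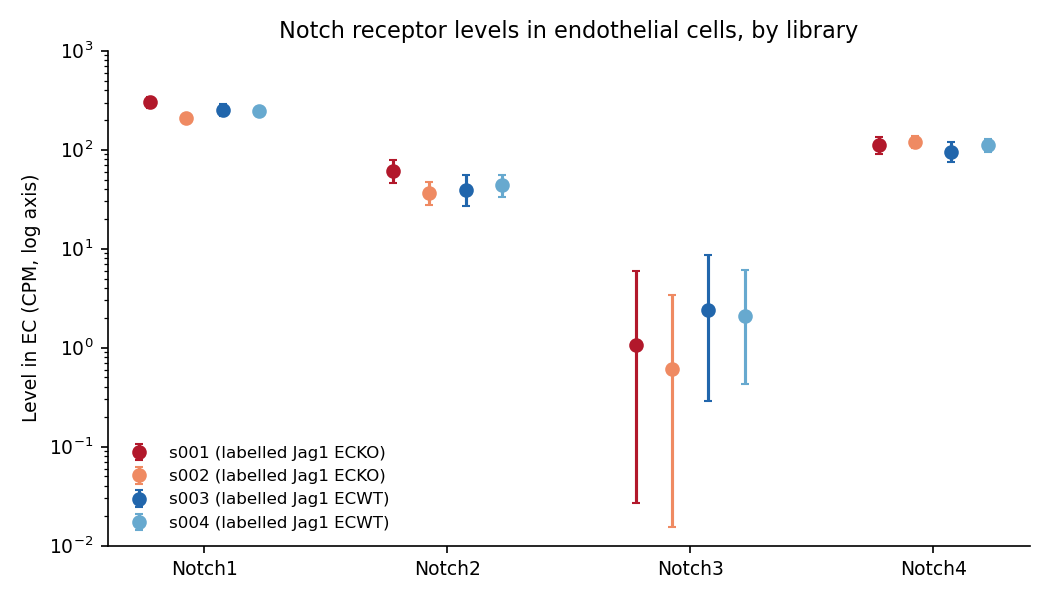
Levels of the 4 receptors in EC in CPM (log axis), 1 point per library, with exact 95% Poisson intervals of the count. Notch1 lies between 208 and 300 CPM, Notch4 between 95.9 and 120 CPM, Notch2 between 36.5 and 61.4 CPM, and Notch3 at or below 2.40 CPM with wide intervals.

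Of all 1954 receptor counts in EC, Notch1 took 61.0% (exact binomial 95% interval 58.7 to 63.1%), Notch4 27.7% (25.8 to 29.8%), Notch2 10.95% (9.60 to 12.4%) and Notch3 0.358% (0.144 to 0.737%). These intervals cover counting error only. By library the Notch4 share was 23.4, 32.8, 24.5 and 27.6% in s001 to s004, highest in s002, where the Notch1 share was lowest at 57.0%.

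Single cells showed few copies of each receptor. Notch1 was counted in 64.2, 69.8, 72.1 and 67.9% of EC in s001 to s004, with up to 10 counts in a cell. Notch4 was counted in 34.7, 46.7, 34.6 and 36.7% of EC, with up to 7 counts. Notch2 was counted in 22.3, 18.7, 17.6 and 20.4% of EC, with up to 5. Since s002 was sequenced deepest (median 6421 counts per EC, against 4123 in s001), shares were compared again after thinning each EC to 2837 counts, which left out 81 of 794 EC (36, 13, 12 and 20 by library). At this depth Notch4 was counted in 26.9, 26.8, 21.3 and 22.0% of EC, so that s002 no longer stood above s001. Notch1 was counted in 50.2, 44.1, 48.1 and 49.5% and Notch2 in 15.9, 8.07, 10.4 and 10.9%. At this depth s001 was highest and s002 lowest for both Notch1 and Notch2. The variance of the thinned counts over EC divided by their mean, which is 1 for random sampling of equal cells, was 1.29 to 1.46 for Notch4, 1.17 to 1.31 for Notch1 and 0.966 to 1.32 for Notch2 across libraries.

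Another question was whether the receptors separated EC from the mural and fibroblast cells that had passed the sort. Notch3 was higher in Myh11-high cells than in EC, Notch1 was lower, Notch4 gave a lower value that did not pass the test, and Notch2 gave no clear difference. Notch3, the mural receptor, had 10 counts in the 7 Myh11-high cells of s001, 1 in the 2 cells of s002 and 4 in the 5 cells of s004, which is 160, 22.2 and 88.1 CPM. All 3 values lay above the 0.608 to 2.40 CPM of EC, although 1 rests on a single count and s003 had no Myh11-high cell. Pooled over these 3 libraries, Notch3 stood at 98.1 CPM in Myh11-high cells and 1.24 CPM in EC, a ratio of 79.1 (95% interval from counting error 27.3 to 278). Without s001 the levels were 55.3 and 1.30 CPM, from 5 and 4 counts, and the ratio was 42.7 (9.18 to 215). Without s004 it was 132 (28.9 to 1230), from 11 and 2 counts. It was counted in 7 of the 14 Myh11-high cells, with up to 4 counts in a cell, and in 7 of 794 EC, with 1 count each, at median depths of 8401 and 5245.5 counts. Thinned to 2837 counts, Notch3 was counted in 24.6% of Myh11-high cells and in a mean of 0.447% of EC.

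Counts were summed per library and class and compared with edgeR's quasi-likelihood test, with the library as a block and Benjamini-Hochberg adjustment over all genes. The filter on low counts left 1252 genes, and of the receptors Notch1 alone remained, so Notch2, Notch3 and Notch4 were taken from the same fit without a filter, over 18504 genes. The median log2 difference of all genes in that fit was -0.86 for Myh11-high cells and -1.21 for Lum-high cells against EC, while DESeq2 without a filter gave medians of 0.81 and 1.21. In the edgeR fit Notch3 was higher in Myh11-high cells than in EC by 5.41 on the log2 scale (SE 0.89, adjusted p = 2.05e-07, edgeR), in a comparison in which 3.03% of all genes were called. The call was lost without s001, which gave 10 of the 15 counts (log2 difference 4.70, SE 1.6, edgeR adjusted p = 0.181), and when cells were thinned to 2837 counts before summing (4.43, SE 2.44, edgeR adjusted p = 0.500). The direction was the same in both.

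Notch1 had 1, 0 and 4 counts in the Myh11-high cells of s001, s002 and s004, which is 16.0, 0 and 88.1 CPM and below the 208 to 300 CPM of EC in every library. It was lower than in EC (log2 difference -2.69, SE 0.67, edgeR adjusted p = 0.00102). Of the 1252 genes in this filtered fit, 32.1% were called, so a call was common in this comparison. The call was lost when the classes were cut at 3 counts (-1.02, edgeR adjusted p = 0.128) and without s002 (-2.14, edgeR adjusted p = 0.0734). Notch1 passed the filter through its level in EC. Without a filter edgeR gave -3.32 (SE 0.84, edgeR adjusted p = 0.00550), while DESeq2 gave -2.65 and lost the call (DESeq2 adjusted p = 0.0698).

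Notch4 had 1, 0 and 4 counts in Myh11-high cells, or 16.0, 0 and 88.1 CPM, and these values lay below the 95.9 to 120 CPM of EC. The log2 difference in the unfiltered fit was -2.14 (SE 0.81, edgeR adjusted p = 0.148). Its size rested on single libraries and on the scaling, with -3.81 without s004, -1.41 without s002, -1.39 with DESeq2's size factors in edgeR, -1.51 with DESeq2 and -1.13 with classes cut at 3 counts. Notch2 had 6, 1 and 5 counts, or 96.1, 22.2 and 110 CPM, on both sides of the 36.5 to 61.4 CPM of EC. Its log2 difference was 0.33 (SE 0.67, edgeR adjusted p = 0.946). It too moved, from 0.09 without s004 to 0.80 without s002, 1.04 with DESeq2 and 1.08 with DESeq2's size factors in edgeR, and passed in none of these.

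Pooled over the 15 Lum-high cells, Notch1 had 14 counts (115 CPM), Notch4 had 7 (57.4 CPM), Notch2 had 4 (32.8 CPM) and Notch3 had 0. Most came from s002, with 12 of the Notch1 and 4 of the Notch4 counts in its 9 cells. In s003 Notch1 and Notch4 had 2 counts each, in s001 the single cell had 1 count of Notch4 and none of Notch1, and s004 had no receptor count, so the pooled order rests on s002. Notch1 was below its level in EC (log2 difference -1.25, SE 0.56, edgeR adjusted p = 0.152) in a filtered fit that called 12.9% of genes, and did not pass. Without s002 it was -2.56 (edgeR adjusted p = 0.217), and without a filter -2.0 (edgeR adjusted p = 0.156). In the unfiltered fit, which called 1.08% of genes, the log2 difference of Notch4 was -1.56 (SE 0.75, edgeR adjusted p = 0.422) and that of Notch2 was -0.98 (SE 0.87, edgeR adjusted p = 0.837), and neither passed. Both values moved with the processing, in either direction. Notch4 was -0.77 with no scaling, -0.92 with DESeq2's size factors in edgeR, -0.76 with DESeq2 and -3.35 with cells thinned before summing, and Notch2 was -0.15, -0.30, -0.23 and -1.88. Without s002 Notch2 was -1.83. The endothelial list summed to 4604 CPM in Lum-high cells against 9916 CPM in EC, and its part in these receptor values was not tested.

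Between the minor classes Notch3 had 15 counts in Myh11-high cells and 0 in the Lum-high cells of the same 3 libraries, and the difference did not pass the test in the unfiltered fit (edgeR adjusted p = 0.160). Divided by a floor of 3 counts over the Lum-high cells, the Notch3 level of Myh11-high cells gave 3.16 with all 3 libraries and 1.71 without s001. Without s002, which held 9 of the Lum-high cells, the same quotient was 0.317. These values leave out the counting error of the Myh11-high cells, so they are not lower bounds. Notch1 gave a log2 difference of -1.44 between Myh11-high and Lum-high cells (SE 0.92, edgeR adjusted p = 0.369), in a filtered fit that called 15.5% of genes. Its direction turned without s002 (0.42) and with classes cut at 3 counts (0.16).

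**Figure D2:**
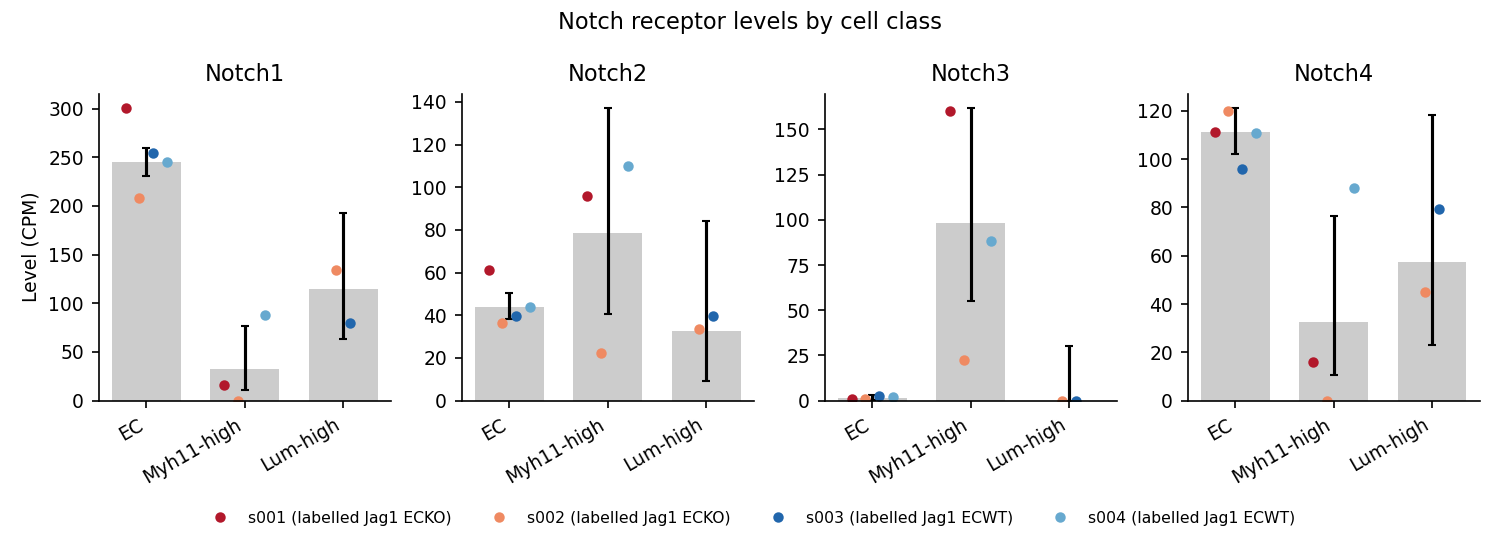
Receptor levels in CPM by cell class. Grey bars are pooled counts over libraries with exact 95% Poisson intervals, and points are single libraries (those with only 1 cell of a class are not drawn). Notch3 stands at 98.1 CPM in Myh11-high cells and near 0 in EC, whereas Notch1 falls from 245 CPM in EC to 32.7 CPM in Myh11-high cells. In Lum-high cells Notch3 has 0 counts, with an upper limit of 30.3 CPM.

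The mixture of receptors in each class shows the same values in another form. In Myh11-high cells Notch3 took 40.5% of 37 receptor counts (exact binomial 95% interval 24.8 to 57.9%), Notch2 took 32.4%, and Notch1 and Notch4 took 13.5% each. The lead of Notch3 rested on s001, where it took 55.6% of 18 counts. Without this library Notch3 took 26.3% of 19 counts and Notch2 31.6%, so that their order turned, and Notch1 and Notch4 took 21.1% each. Without s004 Notch3 took 55.0% of 20 counts and Notch1 and Notch4 5.0% each. In Lum-high cells Notch1 took 56.0% of 25 counts, Notch4 28.0% and Notch2 16.0%. Of these counts 19 came from s002, and the other libraries held 2 counts of Notch1, 3 of Notch4 and 1 of Notch2, so that the lead of Notch1 was lost without s002.

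**Figure D3:**
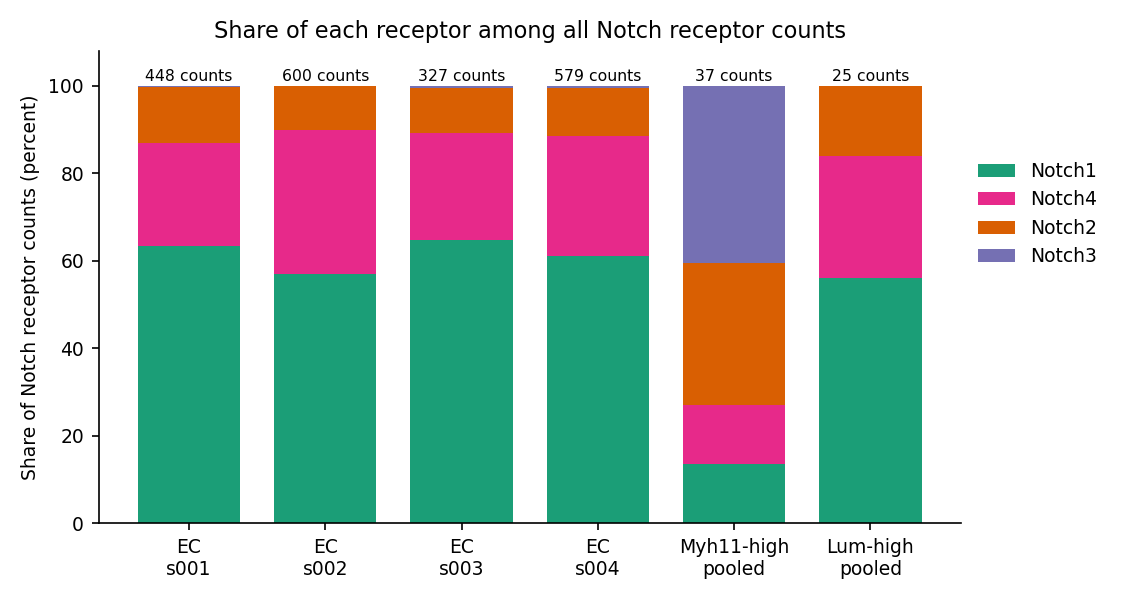
Share of each receptor among all Notch receptor counts, in percent, for EC in each library and for the pooled Myh11-high and Lum-high cells. Notch1 takes 57.0 to 64.8% in the 4 EC bars, and Notch3 takes 40.5% in the Myh11-high bar, or 26.3% without s001.

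The 7 EC with Notch3 were too few to show whether Notch3 counts were concentrated in cells with Myh11 counts. Myh11 was counted in 1 of the 7 EC with Notch3 (14.3%) and in 122 of the 787 EC without it (15.5%). From s001 to s004, Myh11 was counted in 1 of 1, 0 of 1, 0 of 2 and 0 of 3 EC with Notch3. Among EC without Notch3 it was counted in 44 of 192, 56 of 224, 1 of 134 and 21 of 237. EC held 7 Notch3 counts beside 153 of Myh11, or 4.58 per 100 (95% Poisson interval 1.84 to 9.43), and Myh11-high cells held 15 beside 931, or 1.61 per 100 (0.902 to 2.66). The intervals cover the error of the Notch3 counts alone. Myh11 cut the classes, which keeps its counts low in EC and high in Myh11-high cells. The 2 ratios therefore cannot be compared. The EC of s003 held 2 Notch3 counts beside 1 of Myh11. The part of mural RNA in the Notch3 counts of EC was not tested. With 1 to 3 counts in a library, Notch3 in EC could not be told apart from background at this depth.

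A further question was whether EC carried receptors together or apart. At 2837 counts per cell, pairs of receptors were counted in the same EC about as often as the product of their separate shares gave. For Notch1 with Notch4, a mean of 80.6 EC over 20 thinnings had both and 83.1 were expected, a ratio of 0.970, with 0.895 to 1.03 over libraries. For Notch1 with Notch2 the ratio was 1.04, but 2 libraries lay above 1 and 2 below (0.684 to 1.35). For Notch2 with Notch4, 16.8 EC had both and 19.4 were expected, a ratio of 0.865 (0.649 to 1.05), below 1 in 3 of 4 libraries. Ratios of Notch2 with the 6721 other genes counted in at least 5% of EC had a median of 0.991 and spread from 0.649 to 1.35 between their 5th and 95th percentiles, so the value for Notch4 lay within that spread. Each pair with Notch3 was expected in fewer than 2 EC and could not be read. Cells are not replicates, and no test was made.

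**Figure D4:**
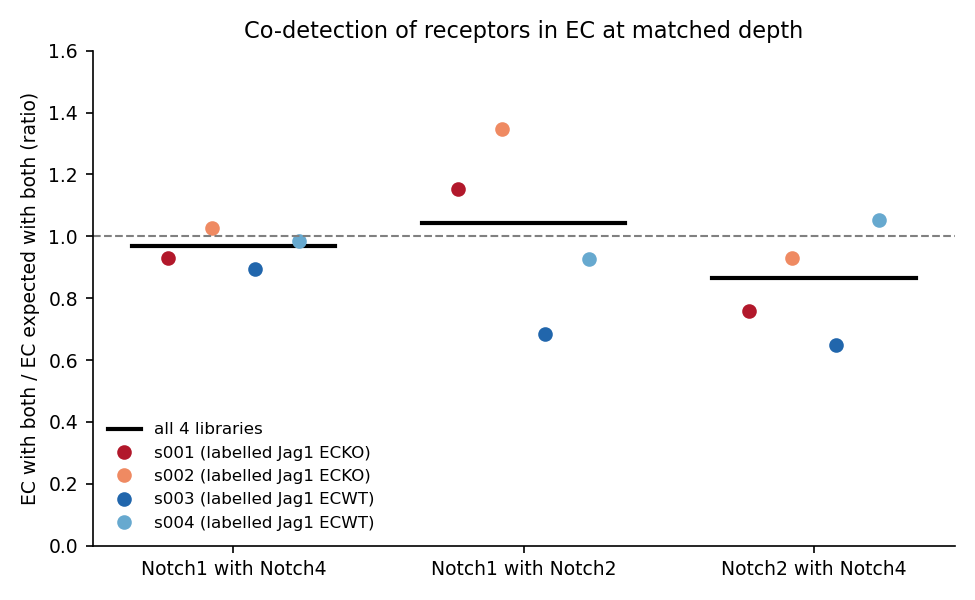
EC with both receptors divided by EC expected to have both, at matched depth. Points are libraries, bars are all 4 libraries, and the dashed line marks a ratio of 1. The pooled ratios are 0.970, 1.04 and 0.865.

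Without thinning, 16.2 to 18.1% of EC in a library had no receptor counted, 39.6 to 49.3% had 1, 27.2 to 36.0% had 2 and 5.18 to 8.0% had 3. None of 794 EC had all 4. The ligand Jag1 was counted in 15.6% of EC at matched depth. Its ratio was 0.995 with Notch1 (54.0 EC against 54.3 expected), 0.964 with Notch2 (12.4 against 12.9) and 1.07 with Notch4 (31.6 against 29.5). EC with a count of this ligand therefore had counts of the receptors at about the share expected from their separate shares. Dll4, a Delta-like ligand of arterial and sprouting endothelium, gave 0.947 with Notch1 and 0.896 with Notch4. With Notch2 it gave 0.538, below the 5th percentile of the other genes, but from 2.8 EC against 5.21 expected. Rbpj, the nuclear partner of all 4 receptors, gave 1.06 with Notch1 and 0.911 with Notch4. Of the target genes, Hes1 gave 1.02 with Notch1, 0.989 with Notch4 and 1.34 with Notch2 (13.4 EC against 9.98 expected), just under the 95th percentile of 1.35 of the other genes. Hey1 gave 1.21 with Notch1, from 9.2 EC against 7.59 expected. The 95th percentile for Notch1 was 1.13, but over genes counted in at least 5% of EC, and Hey1 was counted in 2.16%.

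Receptor levels were then followed over 14 clusters made from all genes, as a description without a test. Among the 13 clusters outside the one led by Myl9 and Myh11, Notch1 ranged from 193 CPM in cluster 4 (led by Cxcl1 and Cxcl12) to 330 CPM in cluster 5 (led by Aqp1 and Fxyd6), and cluster 5 was above cluster 4 in all 4 libraries. It stood at 75.9 CPM in cluster 11, which was led by Myl9 and Myh11 and also by Lum. With libraries pooled, Notch4 was lowest in cluster 9, whose 32 cells were led by Lrg1, Fabp4 and Nr2f2, at 28.2 CPM (95% Poisson interval 9.17 to 65.9). It was highest in cluster 13, whose 17 cells were led by Gpihbp1, Cd36 and Igfbp3, at 346.9 CPM (222 to 516). Nr2f2 is known as a venous identity factor, and Gpihbp1 anchors lipoprotein lipase on capillary endothelium. In cluster 13 Notch4 had 7, 8, 4 and 5 counts in s001 to s004, held by 2, 2, 3 and 1 of its 4, 4, 8 and 1 cells, so that 8 of the 17 cells carried the value. In 3 of these libraries that is 390 CPM or more, and in s003 it is 141 CPM, below the 176.6 CPM of cluster 0. In cluster 9 it had 3, 0, 0 and 2 counts, held by 2, 0, 0 and 1 of its 18, 9, 3 and 2 cells. That is 32.5, 0, 0 and 159 CPM. In s004 cluster 9 was therefore not lowest, and lay above clusters 7 and 0 (140.4 and 131.4 CPM).

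Notch2 had 1 count in cluster 9 and 0 in cluster 13, where the interval reached 53.3 CPM, and with libraries pooled was highest in cluster 4 at 73.4 CPM (54.1 to 97.3). By library, s001 to s004, cluster 4 stood at 130, 75.2, 40.7 and 66.7 CPM, and in s003 it was below clusters 0, 5, 1 and 8 (81.5, 63.4, 54.9 and 51.1 CPM) and in s004 below cluster 11 (93.5 CPM). Notch1 did not follow either receptor there, with 231.5 CPM in cluster 9 and 245.7 CPM in cluster 13. Notch3 had 15 of its 22 counts in cluster 11 (54.2 CPM) and no more than 2 in any other. The cluster of 29 cells that came from s001 alone had 289 CPM of Notch1, 134.5 CPM of Notch4 and 20.2 CPM of Notch2.

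**Figure D5:**
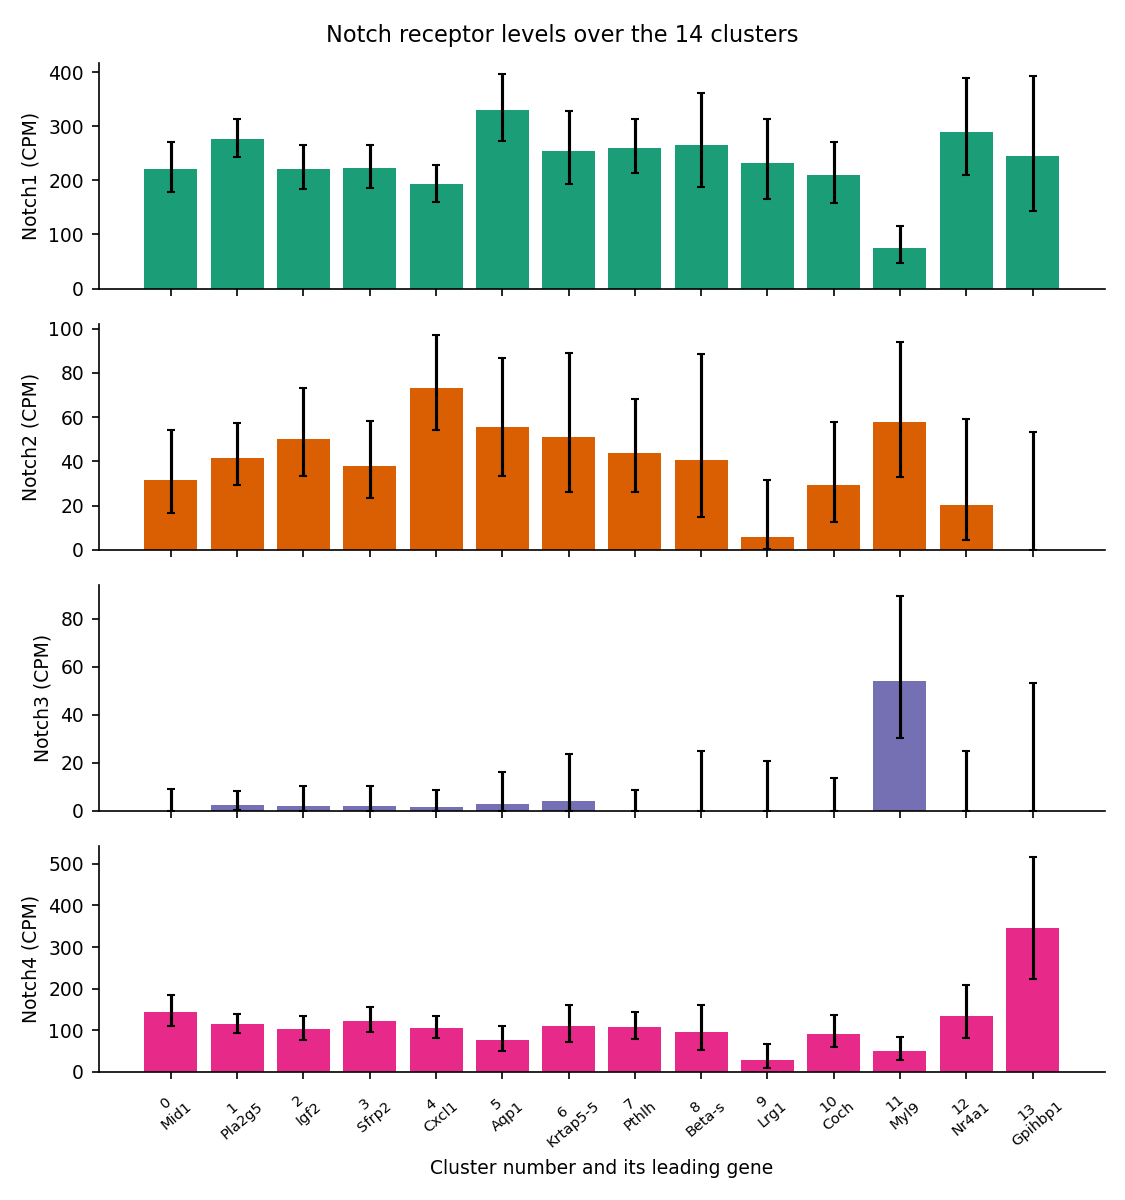
Receptor levels in CPM over the 14 clusters, each named by its number and leading gene, with exact 95% Poisson intervals of pooled counts. Notch4 is lowest in cluster 9 (28.2 CPM) and highest in cluster 13 (346.9 CPM), and Notch3 is high in cluster 11 (54.2 CPM).

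The genes most like each receptor over the 14 clusters were found by Pearson's r of log2(CPM + 10) among 3332 or 3333 genes with a mean of 50 CPM or more. For Notch1 they were Elmo1 (r = 0.919), Egfl7 (0.915), Esam (0.911), Sox18 (0.907) and Srgn (0.906). Egfl7 and Esam encode proteins made by EC, a secreted factor and an adhesion molecule, and Sox18 a vascular transcription factor. For Notch3 they were Myh11 (r = 0.967), Tpm2 (0.942), Myl9 (0.934), Col1a1 (0.932) and Pbxip1 (0.924), of which the first 3 are contractile genes of smooth muscle. For Notch4 they were Slc50a1 (r = 0.883), Srrm2 (0.867), Dclre1c (0.861), Pcmtd2 (0.848) and Bcl9l (0.837), and for Notch2 they were Reep5 (r = 0.929), Uhrf1bp1l (0.897), Cytl1 (0.894), Gabarap (0.887) and Setbp1 (0.879). Among the receptors r was 0.33 for Notch1 with Notch4 and -0.86 for Notch1 with Notch3. The clusters share libraries and differ in size and depth, and cluster 11 weighs heavily on the values of Notch1 and Notch3.

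The last question was whether receptor levels in EC differed between the labels. Neither Notch1, Notch2 nor Notch4 passed the test. The log2 difference of the libraries labelled Jag1 ECKO minus those labelled Jag1 ECWT was 0.03 for Notch1 (SE 0.19, edgeR adjusted p = 0.997), 0.20 for Notch2 (SE 0.29, edgeR adjusted p = 0.954) and 0.18 for Notch4 (SE 0.20, edgeR adjusted p = 0.949). Notch3 did not reach the filter. Of 9579 genes tested, 0 (0.0%) were called by edgeR, 421 had an unadjusted p under 0.05, and DESeq2 called 1. Without s001 the difference was -0.18 for Notch1, -0.12 for Notch2 and 0.28 for Notch4, so that Notch1 and Notch2 changed sign, and none passed. A fit without 1 library leaves its label with a single library, which is assumed to vary like those of the other label. In Notch1 the pair labelled Jag1 ECKO held both the highest and the lowest value. RNA of smooth muscle moved with the labels in EC, where Myh11 stood at 54.0 and 43.2 CPM in the libraries labelled Jag1 ECKO and at 1.20 and 20.8 CPM in those labelled Jag1 ECWT. In the 639 EC without a count of Myh11 or Lum, the differences were 0.06, 0.28 and 0.18 for Notch1, Notch2 and Notch4. An exact permutation test of 2 libraries against 2 cannot reach a p of 0.05.

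The rest of the pathway was read from a list of 53 genes, of which 50 were in the table. In the filtered class fit 5 of them were tested, and in Myh11-high cells against EC 1 rose and 2 fell, where 402 of all 1252 genes (32.1%) were called. Heyl, a target gene of Notch signalling that is typical of mural cells, was higher in Myh11-high cells than in EC, as Notch3 was. It stood at 208, 288 and 375 CPM in the Myh11-high cells of s001, s002 and s004 and at 8.39 to 15.2 CPM in EC. The log2 difference was 4.90 (SE 0.60, edgeR adjusted p = 1.61e-10). Heyl was also higher than in Lum-high cells (3.13, SE 0.88, edgeR adjusted p = 0.00717), a call lost without s004. The groups did not overlap. Heyl passed the filter through its level in Myh11-high cells. Without a filter the 2 differences were 4.27 (SE 0.61, edgeR adjusted p = 5.85e-10) and 3.12 (SE 0.85, edgeR adjusted p = 0.0327). Notch3 in the same Myh11-high cells was 160, 22.2 and 88.1 CPM, and no link between the 2 genes was tested. Adam10, the protease that makes the first cut after ligand binding, fell (log2 difference -1.85, SE 0.57, edgeR adjusted p = 0.00717), and so did Efnb2, an arterial target gene (-1.47, SE 0.51, edgeR adjusted p = 0.0185), but both calls were lost without s001 or s002. In Lum-high cells against EC, Efnb2 was the only one of the 5 called (-2.51, SE 0.60, edgeR adjusted p = 0.00134), where 12.9% of all genes were called, and the call was lost without s002. Which genes passed the filter depended on their levels in the classes, so the counts over these 5 say nothing of the pathway as a whole. Without a filter, all 50 were tested, with a median log2 difference of -1.30 in Myh11-high cells and -1.22 in Lum-high cells beside -0.86 and -1.21 over all genes, and 1 rose and 3 fell in Myh11-high cells against EC, where 3.03% of all genes were called. Heyl and Adam10 were among these 4 and Efnb2 was not, so its call against Myh11-high cells was lost without the filter.

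Between the labels 0 of 44 tested pathway genes passed, with a median log2 difference of -0.06 beside 0.00 over all genes. The ligand Jag1, with 156, 120, 26 and 38 counts in the EC of s001 to s004, was higher in the libraries labelled Jag1 ECKO by 2.03 on the log2 scale (SE 0.36, edgeR adjusted p = 0.923). It passed without a filter (2.06, edgeR adjusted p = 7.00e-10) and with DESeq2 (2.05, adjusted p = 0.0411), but not with DESeq2 without a filter (2.07, adjusted p = 0.101), which called 0 genes, 102 having an unadjusted p under 0.05. In edgeR it passed without s001 (1.44, adjusted p = 0.000112) and without s002 (2.49, adjusted p = 9.58e-05), where 1 library stands for Jag1 ECKO and the spread comes from the pair labelled Jag1 ECWT, and did not pass without s003 (2.12, adjusted p = 1) or without s004 (1.95, adjusted p = 0.999). Without s001, where edgeR called 141 of 10594 genes, Dll1, a Delta-like ligand, and Ncstn, a gamma-secretase subunit, were called lower as well. Those calls rest on s002, since Dll1 stood at 109 and 26.8 CPM in s001 and s002 and at 107 and 72.8 CPM in s003 and s004, and Ncstn at 84.6, 45.6, 87.5 and 92.9 CPM. Dll4 stood at 29.6, 22.5, 15.6 and 30.5 CPM, with a log2 difference of 0.11 (SE 0.39, edgeR adjusted p = 0.991).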

How the data were processed

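The authors deposited estimated counts per gene and cell for 991 cells in 4 SORT-seq libraries, aligned to GRCm38 with STAR per the labels. Each estimated count is a number of unique molecular identifiers (UMIs) corrected for chance repeats, not normalized, and inverting that correction gave whole numbers within 3.64e-12. The counting tool and its strand setting are not given in the sources used here. Column names assigned each of the 991 cells to its library.

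Values were rounded. Cells with more than 1200 genes were kept, and the classes were cut at 5 counts of Myh11 or Lum. Counts were summed per library and class and the sums were compared by the quasi-likelihood test of edgeR 4.0.16 after filterByExpr and TMM scaling (adjusted p below 0.05), with the library as a block between classes and no covariate between labels. DESeq2 1.42.0 was an alternative. 3 class sums rest on 1 or 2 cells, and the sum without a cell was dropped. Cells were thinned without replacement to 2837 counts, the 10th percentile, over 20 draws. Clusters came from Seurat 5.3.0 (2000 variable genes, 12 components, resolution 2.3). Promoters are from RefSeq and gene positions from GENCODE.

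Totals per library were 859280 to 1779042 counts. A floor of 3 counts stands for a class at 0. On simulated counts, the comparison of Myh11-high cells with EC (1102 genes) found 14% of the genes given a log2 change of 1 and 77% at a log2 change of 2, with 6 false calls. The comparison of labels (9158 genes) found 4% and 31%, with 2 false calls. The simulation used genes past the filter, the same spread for every gene and no library effect beyond the totals. Its rates do not cover the unfiltered class fits of Notch2, Notch3 and Notch4.

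Named genes were the 4 receptors, up to 8 called pathway genes per comparison with the largest change, Jag1 and Dll4, the 5 genes most like each receptor, and class markers. Hes1, Hey1 and Rbpj were named for co-detection. From the unfiltered fits, values are given for the receptors, Heyl and Jag1, and other pathway genes are only counted or named. The receptors, gene lists and tests were chosen with earlier results of these data known. Dlk2, Neurl1a and Hes5 of the pathway list had no row in the table used here. Alternatives changed the gene minimum, class cut, classes, tool, scaling, filter, rounding, depth and library block and left out each library. The fits of Notch2, Notch3 and Notch4 without a filter under each alternative, EC without Myh11 or Lum counts, pathway counts without each library, and the Myh11-high receptor mixture and Notch3 ratio without each library were added after seeing the data.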

Additional observations from a re-analysis of the deposited data

How the results depend on the processing

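In Myh11-high cells against EC, the log2 difference of Notch1 was -1.02 (edgeR adjusted p = 0.128) with classes cut at 3 counts and -4.64 to -2.14 without 1 library, with the call lost without s002 alone (edgeR adjusted p = 0.0734). Its sign held under all alternatives that kept it in the test, and its call under the other single alternatives run with the filter. DESeq2 without a filter gave -2.65 (adjusted p = 0.0698). No receptor passed the filter with cells thinned before summing. Notch3 without a filter was 4.43 with cells thinned before summing, and 4.70 to 5.96 without 1 library. Notch4 passed once, without the replicate block (-2.09, edgeR adjusted p = 0.0268). Notch1 between Myh11-high and Lum-high cells was 0.16 with classes cut at 3 counts and -3.44 to 0.42 without 1 library. Between the labels Notch1 was -0.01 with all deposited cells and -0.18 to 0.23 without 1 library, and Notch2 was -0.12 to 0.50 without 1 library. The genes called between the labels were 67 without a filter, 1 with DESeq2 and 0 to 151 without 1 library. After thinning, 326 genes were tested, and 100, 36 and 60 were called for Myh11-high against EC, Lum-high against EC, and Myh11-high against Lum-high. The main fit called 402, 162 and 194 of 1252 genes. Without 1 library these counts were 183 to 553, 46 to 232 and 95 to 249. Called pathway genes were 1 to 4 without 1 library for Myh11-high against EC, 0 to 2 for Lum-high against EC, and 0 to 3 between the labels (1 without a filter and 1 with DESeq2), and 2 without a filter for Myh11-high against Lum-high. Thinned to the matched depth, the mean share of EC with a count was 48.0% for Notch1, 11.3% for Notch2 and 24.3% for Notch4. Notch4 in EC was 122 CPM without Rn45s and mitochondrial genes. The cause of these changes was not tested, except that thinning and left-out libraries leave fewer counts. No paired analysis was possible between the labels because the labels pair no libraries. The minor classes hold 37 and 25 receptor counts, which limits every statement on them.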
